A study of Mus musculus with 4 samples.

Results

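The Wnt pathway genes described here are 48 genes listed by name and grouped by role, 47 of which had at least 1 probe set annotated to that single symbol. They comprised 101 of the 45037 non-control probe sets on the array and 47 of its 18193 named genes. The remaining listed gene, Tcf7, was not analysed here. By role there were 16 ligands, 11 receptors, 7 secreted inhibitors, 5 genes of the R-spondin arm, 5 genes of the destruction complex and beta-catenin, and 3 TCF and LEF factors. All probe sets were kept, dim ones included. A gene is represented by its brightest probe set, that with the highest mean signal over the 4 arrays, unless another is named.

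The arrays measured RNA of basal epidermal cells sorted by flow cytometry from mouse embryos of mixed C57 and CD1 strain at embryonic day 16. There were 2 wild-type (WT) and 2 Ezh2 conditional knockout (Ezh2cKO) arrays, numbered 1 and 2 in each genotype, and the question is which genes of epidermal progenitors depend on Ezh2, the methyltransferase of Polycomb repressive complex 2. The labels name neither the Cre driver nor the number of embryos behind each array. They do not say that the replicates came from separate animals, so each p-value speaks to the spread among these arrays alone. For the WT arrays that spread may be technical. The Ezh2cKO arrays were not repeats of 1 RNA sample: Xist, a marker of embryo sex, was 86.9 on replicate 1 and 11330 on replicate 2. Values are MAS5 signals on a linear scale, and log2 differences are Ezh2cKO minus WT on log2(signal + 16), which understates the change of dim genes.

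Wnt proteins are secreted, lipid-modified ligands that bind a Frizzled receptor together with Lrp5 or Lrp6. Binding stops the destruction complex of Apc, Axin and Gsk3b from degrading beta-catenin, which then enters the nucleus and works with LEF and TCF factors on target genes such as Axin2. Secreted Dkk, Sfrp and Wif proteins restrain the signal, and R-spondins enhance it by holding the ubiquitin ligases Znrf3 and Rnf43 away from Frizzled with the help of Lgr receptors. In embryonic skin the pathway is known for inducing hair follicle placodes in the epidermis, and dermal cells also express many of its ligands and inhibitors.

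Several features of the whole array set bear on the values that follow. The Ezh2 signals of 3336 and 3603 in WT compared with 661 and 1308 in Ezh2cKO, so the targeted gene was lower on both knockout arrays. The epidermal keratin Krt14 was between 14500 and 16590 on all arrays, but dermal fibroblast transcripts were abundant as well, with Col3a1 between 11370 and 15850, and the summed signal of 11 fibroblast markers ranged from 71590 to 77240 in WT and from 70780 to 81100 in Ezh2cKO. The 8 endothelial markers summed to 7118 and 8380 in WT, 3644 in Ezh2cKO replicate 1 and 9121 in Ezh2cKO replicate 2. Xist was 86.9 in Ezh2cKO replicate 1 and between 8669 and 11330 on the others. The Y-linked markers of embryo sex Eif2s3y, Kdm5d and Uty were highest in Ezh2cKO replicate 1, at 860.8, 493.9 and 353.8. On the other arrays they still had signals of 222.3 to 534.7, 118.3 to 286.6 and 133.7 to 286.4. High Xist therefore does not show that those arrays held female embryos alone, and the mix of sexes was not tested. The 3′ to 5′ signal ratio of the Actb control probe sets, a sign of RNA integrity, was 1.49 and 1.56 on the arrays numbered 1 and 1.36 and 1.30 on those numbered 2. In bulk samples such as these, fewer cells of a type and less RNA per cell cannot be told apart.

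Promoter sequence is shown for 3 members whose signals did not overlap between the genotypes, Rspo1 and Wif1 (higher in Ezh2cKO) and Fzd4 (lower), because Polycomb repressive complex 2 is known to act at CpG-rich promoters. Each sequence is the 250 bases before the RefSeq gene start (build GRCm38.p6), 5′ to 3′ on the gene's strand, with every CG dinucleotide in capitals. They lie at chr4:124986180-124986429 (plus strand) for Rspo1, chr10:121033754-121034003 (plus strand) for Wif1 and chr7:89404116-89404365 (plus strand) for Fzd4.
Rspo1: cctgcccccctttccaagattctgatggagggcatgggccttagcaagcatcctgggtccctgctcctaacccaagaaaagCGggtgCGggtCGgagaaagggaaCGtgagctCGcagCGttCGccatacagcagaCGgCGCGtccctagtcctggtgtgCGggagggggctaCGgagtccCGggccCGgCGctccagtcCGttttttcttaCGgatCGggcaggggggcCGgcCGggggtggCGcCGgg
Wif1: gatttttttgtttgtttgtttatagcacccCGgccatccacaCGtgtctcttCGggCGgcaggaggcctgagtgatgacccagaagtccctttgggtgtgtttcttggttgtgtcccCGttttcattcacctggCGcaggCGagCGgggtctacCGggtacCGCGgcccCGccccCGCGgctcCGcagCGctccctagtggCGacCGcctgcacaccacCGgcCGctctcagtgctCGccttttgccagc
Fzd4: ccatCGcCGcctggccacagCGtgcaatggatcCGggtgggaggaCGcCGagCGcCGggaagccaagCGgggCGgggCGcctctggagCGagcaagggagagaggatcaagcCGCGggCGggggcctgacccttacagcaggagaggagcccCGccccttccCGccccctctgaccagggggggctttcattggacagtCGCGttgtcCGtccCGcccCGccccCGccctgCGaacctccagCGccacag

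All 3 sequences carry many CG dinucleotides, 22 in Rspo1, 21 in Wif1 and 25 in Fzd4, whichever direction the gene's signal lay. This was a feature of the members in general. Of the 47 measured members, 30 had an entry in the promoter table outside 1 chromosome that was left out for the members. These had 38 start sites, and 27 of the 38 windows (71.1%) had an observed over expected CpG ratio of at least 0.6. Of all 32851 windows of the same length, with no chromosome left out, 34% did. The median ratio was 0.764 over the member windows and 0.373 over all windows. The 6 non-overlapping members with a window (Dkk1, Fzd4, Rspo1, Wif1, Wnt2 and Wnt9a) spanned 0.260 (Dkk1) to 1.08 (Wnt9a), and all but Dkk1 were above 0.6. The letters of a TCF and LEF motif, CTTTGAT on either strand, were in 2 of the 38 member windows (5.26%), 1 of Wnt5b and 1 of Wnt11, and in 3.21% of all windows. These matches describe the letters alone.

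No Wnt pathway gene passed the test between the genotypes, and the median gene differed by log2 0.03. In limma with Benjamini-Hochberg adjustment over all 45037 probe sets, 0 of the 101 member probe sets were called at an adjusted p of 0.05, with a lowest adjusted p of 0.999993. Over the whole array 0% of probe sets were called. At an unadjusted p under 0.05, 0.731% of the array's probe sets had a higher and 0.389% a lower signal in Ezh2cKO, and none of the 101 member probe sets passed (0 of 101). The lowest unadjusted p of the 101 in this limma fit was 0.0573. The count moved with the settings. The share of all probe sets passing under each other setting is not given here, so the counts that follow have no background to be set against. With the array number as a replicate block 5 member probe sets passed, with a lowest unadjusted limma p of 0.0081. Without the intensity trend 2 passed, and 1 passed with a pseudocount of 1 and with the upper 60% of probe sets. Averaging the probe sets of each gene let 1 gene pass, and some probe sets passed with an Ezh2cKO array left out. The median log2 difference of the 47 genes was 0.06 within number 1 and 0.02 within number 2, against 0.001 over all genes for the 4 arrays. No member differed by 2-fold, and 4 differed by more than 1.5-fold (Wnt2, Wnt3, Wnt5b and Rspo1). Of all 18193 genes, 176 differed by more than 2-fold and 1023 by more than 1.5-fold. These counts are for a pseudocount of 16: with a pseudocount of 1, Wnt2 differed by log2 1.197. With 1 array left out, the largest differences were log2 1.30 for Wnt2 and 1.08 for Rspo1 (both without WT replicate 2), 1.19 for Wnt5b (without WT replicate 1), and -1.18 for Wnt3 and 1.01 for Wnt7a (both without Ezh2cKO replicate 2). The intervals were wide: the distance from the estimate to either limit of the 95% confidence interval had a median of log2 0.65 and ranged from 0.39 to 1.44. For 30 of the 47 genes the interval lay within 2-fold of no difference, and for the other 17 a 2-fold difference lay inside it.

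By values alone, 6 members were higher on both Ezh2cKO arrays than on both WT arrays (Wnt2, Lrp5, Dkk1, Wif1, Lgr5 and Rspo1) and 3 were lower on both (Wnt9a, Fzd4 and Znrf3). These are 12.8% and 6.38% of the 47 genes, where 9.9% and 9.14% of all genes lay higher and lower in the same way. Over all 101 member probe sets, 9 were higher and 5 lower, 8.91% and 4.95%, against 9.43% and 8.53% of all probe sets with a single symbol. The members' shares were therefore near the background. With each array scaled to a common median signal, 2 of the 9 genes (Wnt2 and Rspo1) still did not overlap, while Wnt2b, Dkk2 and Sfrp4 became lower on both Ezh2cKO arrays. With quantile normalization 5 of the 9 did not overlap (Wnt2, Fzd4, Lrp5, Znrf3 and Rspo1), and Wnt2b, Wnt6, Fzd5, Ctnnb1 and Axin1 became separated. The shares of all genes under these 2 scalings are not given here.

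**Figure D1:**
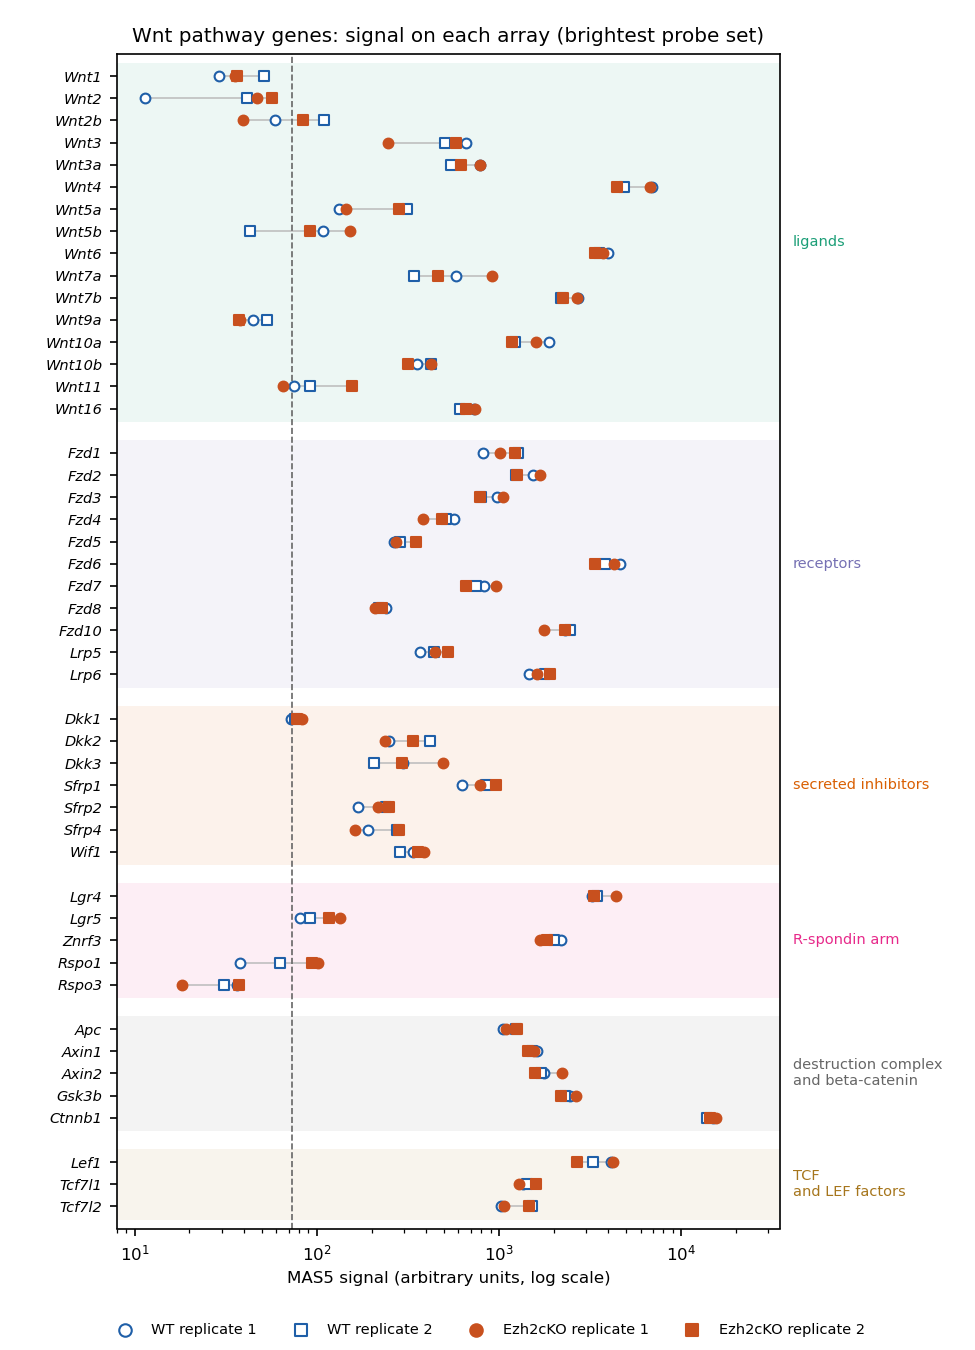
MAS5 signal (log axis) of the brightest probe set of each of the 47 Wnt pathway genes on each array, open blue symbols for WT and filled orange symbols for Ezh2cKO, circles for replicate 1 and squares for replicate 2. The dashed line marks a mean signal of 73.2, above which the upper 60% of probe sets lie. For most genes the symbols of the genotypes lie among each other, and for Wnt5a and Wnt4 the circles and the squares lie apart.

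Among the ligands, those with the strongest probe sets in the epidermis had similar signal in both genotypes. Wnt4, a ligand of many developing epithelia, had signals of 6964 and 4878 on WT arrays 1 and 2 and 6777 and 4439 on Ezh2cKO arrays 1 and 2. The genotypes overlapped, with a log2 difference of -0.09 (SE 0.27). Wnt6, an ectodermal ligand, had 3958 and 3549 in WT and 3719 and 3364 in Ezh2cKO, also overlapping (log2 -0.08, SE 0.16, 95% confidence interval -0.47 to 0.31). Wnt10a, its direct neighbour on chromosome 1 and a ligand of hair and tooth development, had 1882 and 1220.5 in WT and 1605 and 1175 in Ezh2cKO (log2 -0.14). Wnt7b, a canonical ligand made by epidermal cells, had 2705 and 2184 in WT and 2704 and 2239 in Ezh2cKO, nearly the same value within each number (log2 0.02, SE 0.19).

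Wnt10b, a ligand of the early placode, had 355 and 424 in WT and 422 and 318 in Ezh2cKO. Its log2 differences were 0.24 and -0.40 within the numbers, so no direction held. Wnt3a (log2 0.09) and Wnt16 (0.07) likewise overlapped, as did Wnt1 (-0.08), the chromosome 15 neighbour of Wnt10b, whose signals of 29.2 to 51.0 lay below the level that the upper 60% of probe sets reach. Of the 16 ligands, 4 were higher in Ezh2cKO within both numbers, 5 were lower within both and 7 went opposite ways. Of all 18193 genes 4647, 4490 and 9056 did.

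The largest ligand differences were in genes of low or uneven signal. Wnt2, a ligand usually described in mesenchyme, had 11.5 and 41.3 in WT and 47.0 and 56.6 in Ezh2cKO. Both Ezh2cKO arrays were higher, by log2 0.77 (SE 0.52), but all 4 signals lay below 73.2 and the WT arrays differed from each other more than WT replicate 2 did from either Ezh2cKO array. Wnt9a, the chromosome 11 neighbour of Wnt3a, had 44.6 and 53.4 in WT and 37.7 and 37.5 in Ezh2cKO by its brightest probe set (log2 -0.27, SE 0.45). Its other probe set, dimmer still, was higher on both Ezh2cKO arrays, by log2 0.51, so no direction can be given for the gene. Wnt3, a canonical ligand, had 662 and 505 in WT and 246 and 578 in Ezh2cKO (log2 -0.59, SE 0.42). Its low value was on Ezh2cKO replicate 1 alone, at 0.386 times WT within number 1 and 1.14 times within number 2, and its probe set is of a type that may detect similar sequences of other genes.

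Wnt5b and Wnt7a were higher in Ezh2cKO within both numbers without being separated over the 4 arrays. Wnt5b, a mainly non-canonical ligand, had 108 and 42.9 in WT and 151 and 91.5 in Ezh2cKO (log2 0.65, SE 0.59). Its other probe set gave log2 0.05. Wnt7a, a ligand of epithelia, had 585 and 343 in WT and 922 and 466 in Ezh2cKO (log2 0.53, SE 0.41). The fold was 1.56 in number 1 and 1.34 in number 2. Its probe set of intermediate signal gave 0.02 and the dimmest -0.39. Wnt5a, the best known non-canonical ligand, had 132 and 314 in WT and 144 and 284 in Ezh2cKO (log2 -0.01, SE 0.54), so both low signals were on the arrays numbered 1. Wnt11, another non-canonical ligand, had 74.6 and 91.7 in WT and 65.0 and 155 in Ezh2cKO, and Wnt2b had 58.9 and 110 in WT and 39.4 and 84.0 in Ezh2cKO.

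Among the receptors no gene differed by more than log2 0.31 in either direction. The median log2 difference of the 11 was 0.05, with 1 higher and 1 lower on both Ezh2cKO arrays. Fzd6, a Frizzled known for orienting hair follicles, had 4654 and 3819 in WT and 4296 and 3353 in Ezh2cKO (log2 -0.15, SE 0.20). The genotypes overlapped. Its other probe sets gave -0.07 and 0.37 and overlapped as well, so no direction can be given for the gene. Fzd10 had 2309.6 and 2473 in WT and 1779 and 2312 in Ezh2cKO (log2 -0.24, SE 0.19). Only the array Ezh2cKO replicate 1 lay clearly under the rest. The dimmer Fzd10 probe set gave 0.31, the opposite sign.

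Fzd4, a receptor with a known role in blood vessels, was lower on both Ezh2cKO arrays, at 381 and 487 against 568 and 512 in WT. Its log2 difference was -0.31 (SE 0.25), or 0.680 times WT within number 1 and 0.952 times within number 2. All 3 of its probe sets had a negative log2 difference, from -0.47 to -0.04. The dimmer ones overlapped between the genotypes and were higher in Ezh2cKO within number 2, at 1.06 and 1.17 times WT. The endothelial markers were lower on Ezh2cKO replicate 1: their median log2 difference was -1.002 within number 1 and 0.09 within number 2. Their part in the Fzd4 value was not tested.

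Lrp5, a co-receptor that binds Wnt together with Frizzled, had 368 and 440 in WT and 448 and 524 in Ezh2cKO. Both Ezh2cKO arrays were higher, 1.21-fold within number 1 and 1.18-fold within number 2 (log2 0.26, SE 0.25), although WT replicate 2 and Ezh2cKO replicate 1 nearly touched. Its paralog Lrp6 overlapped, with 1455 and 1783 in WT and 1626 and 1918 in Ezh2cKO (log2 0.13), and its dimmer probe set gave -0.39. The other receptors, Fzd1, Fzd2, Fzd3, Fzd5, Fzd7 and Fzd8, had log2 differences from -0.07 to 0.15 and overlapped.

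**Figure D2:**
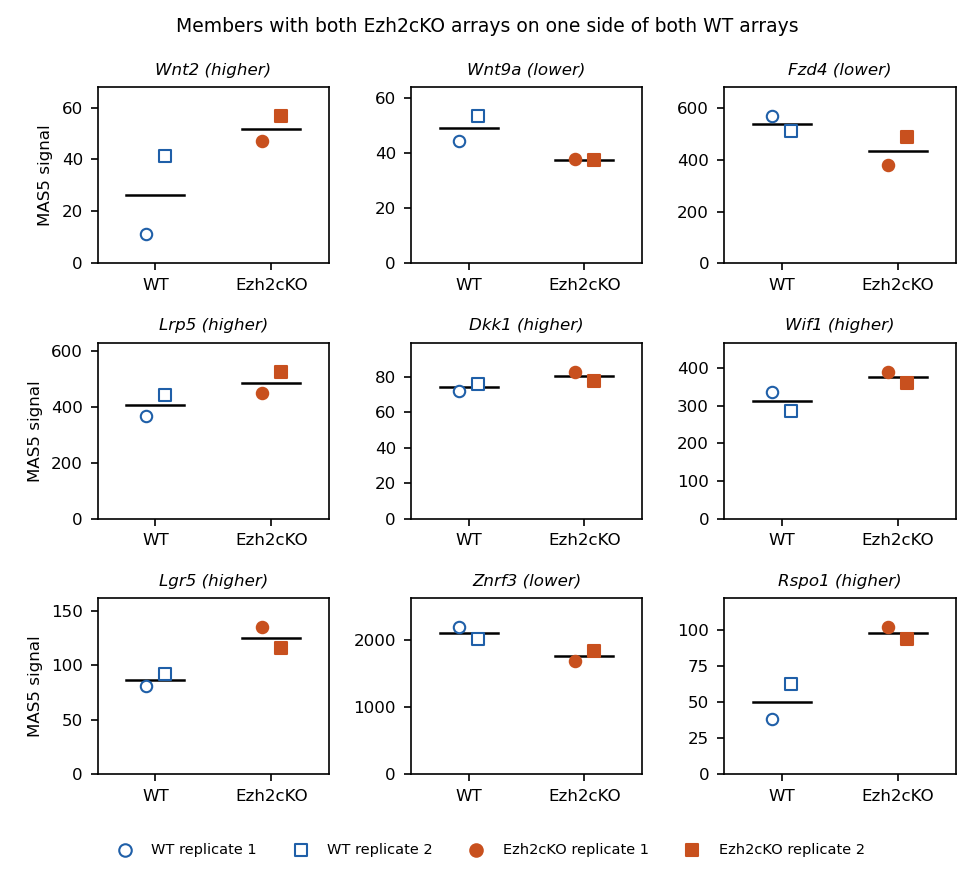
MAS5 signal (linear axes from 0) of the 9 members whose Ezh2cKO signals did not overlap with their WT signals, with bars at the mean of 2 arrays. The gap between the genotypes is smaller than the distance between the arrays of either genotype for Wnt2, Fzd4, Lrp5, Dkk1 and Wif1, and the signals of Wnt2 and Wnt9a stay below 73.2.

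The secreted inhibitors had a median log2 difference of 0.20, 0.20 within number 1 and 0.06 within number 2. Of the 7, 5 were higher in Ezh2cKO within both numbers, 1 was lower within both, and 2 were higher on both arrays. Of all 18193 genes, 4647 were higher and 4490 lower within both numbers, and 9.9% were higher on both arrays. With 7 genes these counts describe the list alone. Dkk3, a divergent member of the Dickkopf family, had the largest difference of the role, with 299 and 206 in WT and 491 and 293 in Ezh2cKO. Its genotypes overlapped because WT replicate 1 lay above Ezh2cKO replicate 2, while the fold was 1.61 in number 1 and 1.39 in number 2 (log2 0.58, SE 0.37). The other Dkk3 probe set did separate the genotypes, with 127 and 199.9 in WT and 332 and 281 in Ezh2cKO (log2 0.87, SE 0.37). This probe set had the unadjusted p of 0.0573 given above.

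Wif1, which binds Wnt ligands outside the cell, had 336 and 286 in WT and 389.5 and 360.5 in Ezh2cKO, higher on both arrays by 1.15-fold and 1.25-fold within the numbers (log2 0.26, SE 0.27). Dkk1, an antagonist of Lrp5 and Lrp6, had 72.1 and 76.0 in WT and 82.6 and 77.7 in Ezh2cKO. Although the genotypes did not overlap, the difference was log2 0.09 (SE 0.48), and its dimmer probe set gave -0.11. Sfrp1, a decoy receptor with a Frizzled-like domain, had 627 and 853 in WT and 789 and 965 in Ezh2cKO (log2 0.25, SE 0.24). Its 5 probe sets ran from -0.59 to 0.38, and 3 of them had a negative difference, so the gene has no settled direction. Sfrp2 (log2 0.20), Sfrp4 (-0.09) and Dkk2 (-0.18), inhibitors known from dermis, overlapped between the genotypes.

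In the R-spondin arm 2 of 5 genes were higher and 1 lower on both Ezh2cKO arrays. Over all genes the shares were 9.9% and 9.14%. With a common median signal, Lgr5 and Znrf3 overlapped. Rspo1, a secreted agonist, had the largest log2 difference of the 47 genes at a pseudocount of 16, with signals of 38.1 and 63.0 in WT and 102 and 94.4 in Ezh2cKO. Its fold was 2.18 in number 1 and 1.40 in number 2 (log2 0.80, SE 0.51, 95% confidence interval -0.44 to 2.05). With a pseudocount of 1 the difference of Wnt2 was larger, at log2 1.197 against 0.99 for Rspo1, as it was with quantile normalization, at 0.79 against 0.77. Both WT signals lay below 73.2, so the size of this difference is uncertain. Rspo3 had signals of 18.2 to 37.5 over the 4 arrays, with no order by genotype, and its probe sets gave opposite signs.

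Lgr5, an R-spondin receptor and a marker of hair follicle stem cells, had 81.1 and 92.2 in WT and 135 and 116 in Ezh2cKO. Both Ezh2cKO arrays were higher, 1.55-fold and 1.22-fold within the numbers (log2 0.46, SE 0.46). The dimmer Lgr5 probe set gave 0.24 and overlapped, at -0.62 within number 1 and 1.09 within number 2. Lgr4, its more broadly expressed relative, had 3255 and 3465 in WT and 4379 and 3346 in Ezh2cKO (log2 0.19, SE 0.19), high only on Ezh2cKO replicate 1. Znrf3, the ligase that removes Frizzled from the cell surface, was lower on both Ezh2cKO arrays, with 2186 and 2009 in WT and 1693 and 1838 in Ezh2cKO. The log2 difference was -0.25 (SE 0.16), 0.776 times WT within number 1 and 0.916 times within number 2. Its other probe set gave 0.28, the opposite sign.

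In the intracellular core of the pathway 0 of 8 genes were separated between genotypes, where 9.9% of all genes were higher and 9.14% lower, and log2 differences ran from -0.13 (Lef1) to 0.11 (Axin2). With quantile normalization Ctnnb1 and Axin1 were separated. Ctnnb1, encoding beta-catenin, had 15018 and 13944 in WT and 15636 and 14521 in Ezh2cKO, 1.04-fold within each number (log2 0.06, SE 0.16, 95% confidence interval -0.34 to 0.45). The signal is high on arrays whose largest value was 21906 to 24300, where differences may be compressed. Gsk3b, the kinase that marks beta-catenin for degradation, had 2465 and 2309 in WT and 2666 and 2181 in Ezh2cKO (log2 0.02, SE 0.17). Its 6 probe sets ranged from -0.22 to 0.39. The next brightest, at -0.22, was lower on both Ezh2cKO arrays, with 2374 and 2134 in WT and 1880 and 1994 in Ezh2cKO. The others overlapped.

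Axin2, a scaffold of the destruction complex and a widely used readout of Wnt signalling, had 1771 and 1714 in WT and 2225 and 1583 in Ezh2cKO. It was high on Ezh2cKO replicate 1 and lowest on Ezh2cKO replicate 2 (log2 0.11, SE 0.21, 95% confidence interval -0.41 to 0.62). Axin1 (log2 -0.06) and Apc (0.03), the other scaffolds, overlapped. Lef1, the transcription factor of hair placodes, had 4132 and 3306 in WT and 4237 and 2682 in Ezh2cKO (log2 -0.13, SE 0.26), and its other probe set gave 0.12. Tcf7l1, a repressor of differentiation in epidermal progenitors, had 1353 and 1434 in WT and 1289 and 1605 in Ezh2cKO (log2 0.05, SE 0.19). Tcf7l2 had a log2 difference of -0.001 (SE 0.26).

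**Figure D3:**
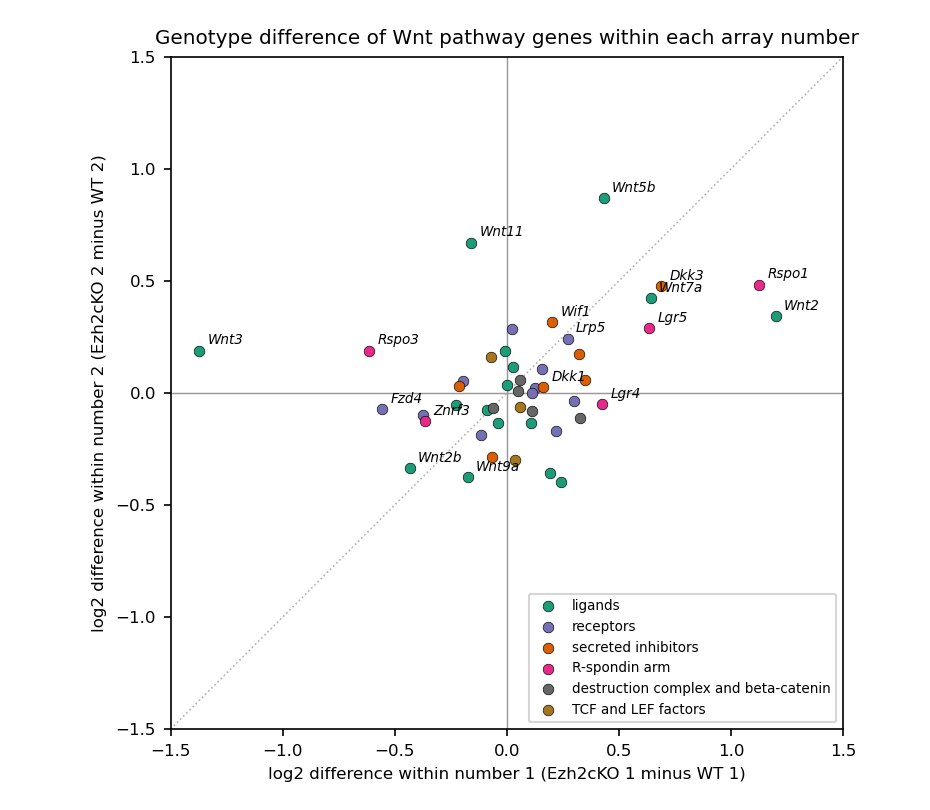
Log2 difference of each member within number 1 (x axis) and within number 2 (y axis), 1 array per genotype each, coloured by role, with the dotted line where both are equal. The members cluster around 0, with Rspo1, Wnt2, Dkk3, Wnt7a, Lgr5 and Wnt5b above 0 on both axes, and Wnt3 at -1.37 and 0.19.

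The agreement between the array numbers was limited. Within both numbers 17 of the 47 members had a higher Ezh2cKO signal and 11 a lower one, and 19 went opposite ways, while of all 18193 genes 4647, 4490 and 9056 did. Probe sets of the same gene also differed. Of the 32 members with more than 1 probe set, 19 had probe sets of opposite sign, and for 10 of these the probe sets spanned more than log2 0.5. Among the 5 non-overlapping members with more than 1 probe set, the signs agreed for Fzd4 and Lgr5 and were opposite for Wnt9a, Dkk1 and Znrf3.

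**Figure D4:**
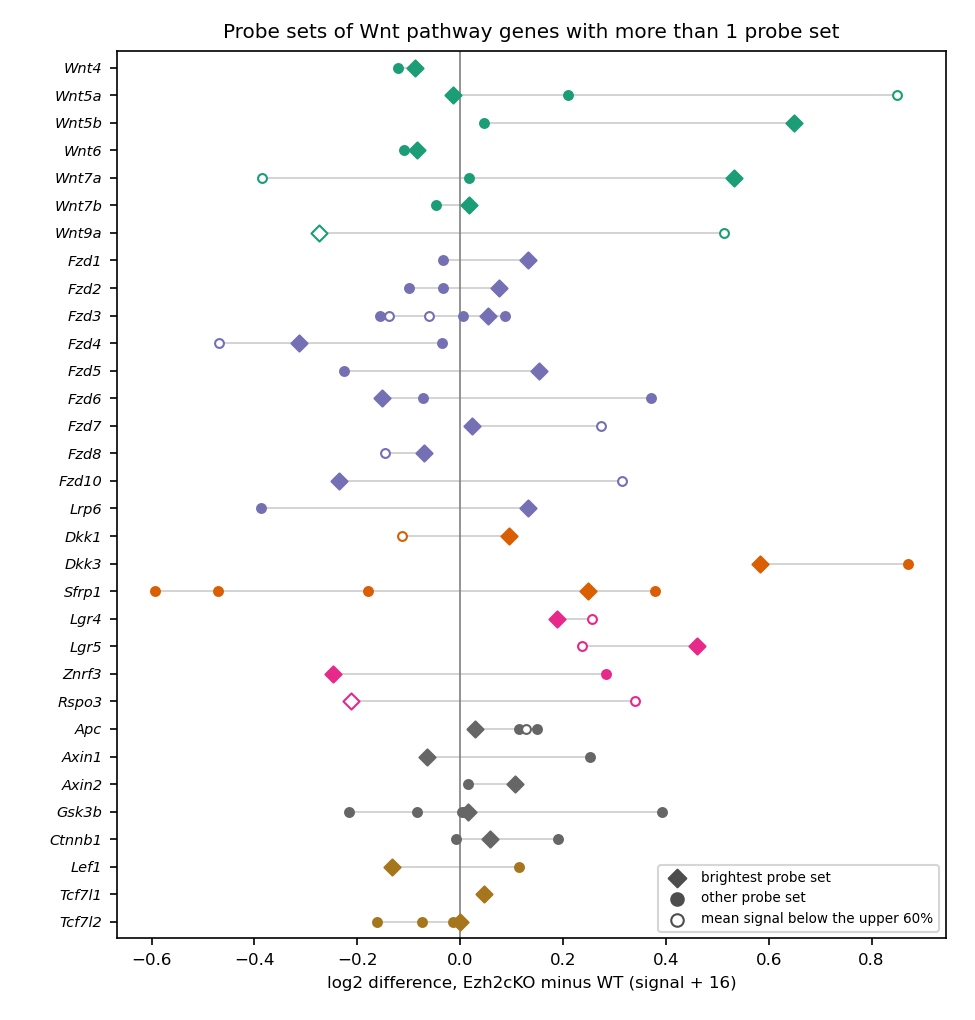
Log2 difference of every probe set (x axis) for the 32 members with more than 1 probe set (y axis), diamonds for the brightest and circles for others, open where the mean signal lay below the upper 60%. Probe sets of Sfrp1, Wnt5a, Wnt7a and Gsk3b lie on both sides of 0.

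The members differed more between the array numbers than between the genotypes. The median absolute log2 difference was 0.29 between the arrays numbered 2 and those numbered 1 and 0.13 between the genotypes, close to 0.30 and 0.13 over all genes. The arrays as a whole also differed by number. The median signal of all non-control probe sets was 91.6 (WT) and 87.4 (Ezh2cKO) in number 1 and 136.9 and 148.1 in number 2. The part of this shift in the members' values was not tested. Both arrays numbered 2 lay above both numbered 1 for 15 members (31.9%) and below for 18 (38.3%), against 35.2% and 28.3% of all genes. Wnt5a had the largest difference, log2 1.03 higher in number 2, followed by Wnt5b (-0.86), Wnt7a (-0.85), Wnt2b (0.80) and Wnt11 (0.66). Of the 16 ligands 4 were higher and 8 lower on both arrays numbered 2, among the latter Wnt4 (-0.56) and Wnt10a (-0.53). Of the 3 TCF and LEF factors, Lef1 was lower (-0.49), and Tcf7l2 (0.50) and Tcf7l1 (0.20) were higher. The dermal inhibitors Sfrp4 (0.62) and Dkk2 (0.59) were higher, and Dkk3 (-0.61) was lower.

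Marker lists moved along the same axis. The median log2 difference of number 2 against number 1 was -0.60 for 8 hair placode and bud markers, whose summed signal was 29730 and 32230 on the arrays numbered 1 and 18260 and 22380 on those numbered 2. Among them Shh, the placode signal downstream of Wnt, had 1918 and 2301 in number 1 and 452 and 587 in number 2. The median was 0.35 for the 11 dermal fibroblast markers and 0.82 for the 8 endothelial markers. Between the genotypes the placode list had 0 of 8 genes separated and a median of 0.15, and the fibroblast list 0 of 11 and -0.07. Of 9 markers of late epidermal differentiation, 6 were higher on both Ezh2cKO arrays, where 9.9% of all genes were, and no probe set on the array passed the limma test. Their median log2 difference was 1.67 within number 1 and 0.33 within number 2. The part of these cell types in the members' values was not tested.

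Of 71 measured other genes of the pathway, 7 were higher (9.86%) and 3 lower (4.23%) on both Ezh2cKO arrays, against 9.9% and 9.14% of all genes. None were called by limma, with a lowest adjusted p of 0.999993. By role, 1 of 6 genes of ligand secretion and further ligands, 3 of 13 further receptors, 2 of 18 intracellular genes and 2 of 16 target genes were higher, with Nkd1 counted in the last 2 groups. Among the intracellular genes 1 was lower and among the target genes 2 were. None of 9 further inhibitors and none of 10 nuclear cofactors were separated.

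Ror1, a receptor for non-canonical Wnt ligands, had 599 and 394 in WT and 1144 and 737 in Ezh2cKO. Both Ezh2cKO arrays were higher, by 1.89-fold within number 1 and 1.84-fold within number 2 (log2 0.90, SE 0.31, unadjusted limma p 0.0291, adjusted p 0.999993). Its other 2 probe sets, both dim, overlapped between the genotypes and gave log2 0.48 and 0.50. The first of these was 0.995 times WT within number 1 and 1.96 times within number 2. Lgr6, the third R-spondin receptor and a marker of epidermal stem cells, had 1894 and 1682 in WT and 2876 and 2068 in Ezh2cKO (log2 0.45, SE 0.21). Its other probe set was also higher on both Ezh2cKO arrays, by log2 0.40.

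Porcn, the acyltransferase that attaches the lipid to Wnt ligands, had 199 and 167 in WT and 256 and 221 in Ezh2cKO (log2 0.36, SE 0.35). Ccnd1, the cyclin D1 gene and a known target of the pathway, had 4229 and 3696 in WT and 5574 and 4694 in Ezh2cKO (log2 0.37, SE 0.17). The fold was 1.32 in number 1 and 1.27 in number 2. Its other probe sets gave 0.19 and 0.06 and overlapped. Tnfrsf19, a target expressed in placodes, was lower, with 6238 and 5428 in WT and 4850 and 4976 in Ezh2cKO (log2 -0.24, SE 0.16). Its other probe sets gave -0.09 and 0.07 and overlapped. Nkd1, Ryk and Csnk1a1 were separated with log2 differences of 0.18, 0.12 and -0.11. All their other probe sets overlapped, at -0.09 to 0.18 for Nkd1, -0.04 and -0.02 for Ryk, and -0.03 to 0.29 for Csnk1a1. Frat1 and Cdx1, the remaining separated genes, had mean signals of 48.1 and 2.64, both below 73.2, and log2 differences of 1.198 (SE 0.62) and -0.10. Of all 18193 genes, 176 differed by over 2-fold and 1023 by over 1.5-fold. Over the 71 genes 4 differed by over 2-fold, and 8 by over 1.5-fold. Besides Frat1 these 4 were Frat2 (1.06, SE 0.71), Fosl1 (1.02, SE 1.13) and Mmp7 (-1.05, SE 0.65), named after their values were seen, whose genotypes overlapped.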

How the data were processed

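For each of the 4 arrays the authors deposited 1 linear signal intensity per probe set. MAS5 is the tool in the submitters' processing notes, with no version. Trimmed by 2% at both ends, each array's mean came to 500.0, and this scaling was kept. The design text gives the chip 2 names. Detection calls were not used here. Arrays were grouped by sample title. Probe sets were named through the platform annotation, using only the 34945 with a single symbol (932 had several and 9160 none), with symbols updated through RefSeq (GRCm38.p6) for 34741.

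The genotype difference was fitted with limma 3.58.1 (R 4.3.3, functions lmFit and eBayes, trend on, arrays unblocked) on log2(signal + 16) over all 45037 non-control probe sets without a filter, with Benjamini-Hochberg adjustment and a threshold of 0.05. The fit was checked on simulated data with differences far larger than those of the members. The simulation gave all probe sets the same spread and no difference between the array numbers. It therefore does not speak to how the fit performs on differences of the members' size. Genes whose genotypes do not overlap were counted beside the share of all genes. The number of arrays limits the precision: an exact permutation test of 2 against 2 arrays cannot give a two-sided p below 0.333.

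The members, the wider pathway list and the marker lists were chosen with earlier results of these data known. Values on all arrays are given for members that do not overlap, the 2 brightest of each role, and the 5 with the largest difference between genotypes and between array numbers, and of the wider list for up to 8 non-overlapping genes in the upper 60% of probe sets. For other members such values are given for context and were chosen after their values were seen. Alternatives were pseudocounts of 1 and 64, filters keeping the upper 60% or 40% of probe sets, quantile normalization, a common median, a replicate block, no trend, averaging all probe sets of a gene, and dropping each array in turn.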

Additional observations from a re-analysis of the deposited data

How the results depend on the processing

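No member probe set was called by limma under any of the alternatives run. With the replicate number as a replicate block, 0 probe sets were called over the array (lowest adjusted p among the members 0.941), and 6 members were higher and 3 lower, as without it. The labels do not say that a number marks a shared litter or day. The differences between the numbers correlated at 0.61 between the genotypes over all probe sets. In the upper 40% of probe sets 2 members were higher on both Ezh2cKO arrays, fewer members being tested, and 2 were with a common median signal. With quantile normalization 5 were higher and 5 lower. With probe sets averaged per gene 9 were higher and 1 lower, and 5 of the 9 stayed separated (not Wnt9a, Fzd4, Dkk1 and Znrf3). Beyond the fewer members tested, the cause was not tested. The shares of all genes under these filters and normalizations are not given here, so whether the members differ from the array there is not known.

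With 1 array left out, 0 to 47 probe sets were called over the array (47 if WT replicate 2 was dropped, 10 for WT replicate 1 and 2 for Ezh2cKO replicate 2). The lone array is assumed to vary like the other genotype. It is more easily passed on 1 side, and 14 to 18 members were then higher and 11 to 14 lower. No share of all genes is given for these counts, so they have no background to be set against. The members' median log2 difference ranged from 0.0049 to 0.106, with 0.0825 without WT replicate 2. Averaging probe sets per gene reversed the sign of the log2 difference of Wnt5a (0.258), Wnt9a (0.119), Fzd6 (0.0494), Fzd10 (0.0396), Dkk1 (-0.0089), Sfrp1 (-0.123) and Znrf3 (0.0187), and the common median that of Gsk3b (-0.0070). With 1 array left out the log2 difference changed sign within the range -0.392 to 0.217 for Wnt4, -0.461 to 0.196 for Lef1, -0.591 to 0.564 for Wnt5a, -0.129 to 0.159 for Gsk3b, -0.810 to 0.0407 for Wnt2b, -0.0051 to 0.381 for Lgr4, -0.285 to 0.796 for Wnt11, -0.329 to 0.0270 for Fzd6 and -0.111 to 0.203 for Tcf7l1. The other 306 of 327 values of the 26 members followed kept their sign. Detection calls were not used, so whether a signal below 73.2 was above background is not known.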
